A study of Mus musculus with 8 samples.

Results

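The respiratory chain and ATP synthase genes were the protein-coding genes whose symbols begin with Nduf, Uqcr, Sdh, Atp5 or with Cox followed by a digit from 4 to 8, together with the 13 protein-coding genes of the mitochondrial genome. Of 98 such nuclear genes listed in the count table, 95 reached 10 counts in 4 or more of the 8 libraries and were tested, as were all 13 mitochondrial genes. They were 108 of 20153 genes tested and of 55573 listed. The 3 nuclear genes that were not tested were Cox4i2, which held at most 37 counts in a library, Cox8c, which held none, and a second gene record named Atp5o, a transcript joined to Donson that also held none. The symbols are those of GENCODE mouse release 21, in which ATP synthase genes still carry the prefix Atp5. The choice used names and a count minimum only, not the difference between the groups.

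The libraries were bulk RNA-seq of microglia sorted from the brains of P60 mice. Of these, 4 came from mice lacking Smad2 and Smad3 in microglia (Smad2/3 fl/fl;Cx3cr1 Cre, the libraries SmadKO1 to SmadKO4, called mutant here) and 4 from littermates labelled wild-type (WT1 to WT4, called control). Smad2 and Smad3 are the canonical transducers of TGFβ signaling, and the Cx3cr1 promoter that drives Cre is active in microglia and in other myeloid cells. The labels do not say whether the controls carried Cre or a floxed allele, whereas the study's methods say that its controls were in general heterozygous for the floxed allele and carried Cre, so that the control mice here may not be free of either. Each library was taken as a separate mouse.

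Respiratory complexes I, III and IV pass electrons from NADH to oxygen and pump protons across the inner mitochondrial membrane, complex II feeds in electrons from succinate without pumping, and ATP synthase uses the proton gradient to make ATP. All but complex II are built from subunits of both genomes: the mitochondrial genome encodes core membrane subunits, and the nucleus encodes the remaining core subunits and many small supernumerary ones. Microglia, the macrophages that live in brain tissue, draw on both respiration and glycolysis.

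Nuclear respiratory genes are known targets of the factors NRF1, GABP of the ETS family, YY1 and ERRα, so the promoters (RefSeq, GRCm38.p6, from 250 bases before to 50 after a start site) were searched on both strands for CGCATGCG (the NRF1 core), CCGGAAGT (ETS), AAGATGGC (YY1) and TCAAGGTCA (ERR). The promoter table covered 78 of the nuclear members through 83 start sites. The NRF1 word occurred in 11 of the 83 (13.3%, against 1.87% of all 32851 promoters), the ETS word in 5 (6.02% against 3.89%), the YY1 word in 10 (12.05% against 2.75%) and the ERR word in 2 (2.41% against 0.423%). Shown are the promoters of a complex III gene and of an ATP synthase gene that each hold a pair of the words, in capitals, and those of Cox7a1 and Ndufaf7, the covered members with the largest called rise and the called fall, which hold none of the 4 words in this window. Sequences run 5′ to 3′ on the strand of the gene, and coordinates are GRCm38.
Uqcr11, chr10:80406772-80407071 (- strand): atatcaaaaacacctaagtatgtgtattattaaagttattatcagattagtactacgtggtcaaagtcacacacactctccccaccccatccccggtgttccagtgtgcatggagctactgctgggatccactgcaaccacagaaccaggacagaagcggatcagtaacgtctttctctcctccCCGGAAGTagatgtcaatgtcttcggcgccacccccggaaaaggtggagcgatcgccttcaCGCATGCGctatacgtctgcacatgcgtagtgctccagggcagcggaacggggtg
Atp5j, chr16:84834927-84835226 (- strand): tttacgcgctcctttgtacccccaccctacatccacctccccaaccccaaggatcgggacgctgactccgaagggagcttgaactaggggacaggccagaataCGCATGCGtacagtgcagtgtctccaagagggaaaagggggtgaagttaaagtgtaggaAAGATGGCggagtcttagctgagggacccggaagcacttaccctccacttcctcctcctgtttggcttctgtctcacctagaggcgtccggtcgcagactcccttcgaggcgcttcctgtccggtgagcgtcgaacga
Cox7a1, chr7:30183921-30184220 (+ strand): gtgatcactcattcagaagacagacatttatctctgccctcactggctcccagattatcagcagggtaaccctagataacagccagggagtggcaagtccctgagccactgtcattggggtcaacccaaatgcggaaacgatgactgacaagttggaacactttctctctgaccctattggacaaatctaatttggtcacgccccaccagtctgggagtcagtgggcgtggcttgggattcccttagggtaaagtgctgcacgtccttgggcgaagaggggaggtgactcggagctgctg
Ndufaf7, chr17:78936885-78937184 (+ strand): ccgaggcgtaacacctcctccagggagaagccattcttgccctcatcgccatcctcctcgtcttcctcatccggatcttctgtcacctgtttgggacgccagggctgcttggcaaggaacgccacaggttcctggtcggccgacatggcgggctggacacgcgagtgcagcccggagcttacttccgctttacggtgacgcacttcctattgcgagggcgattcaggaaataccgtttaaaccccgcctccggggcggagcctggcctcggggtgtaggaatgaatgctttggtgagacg
The capitals in Uqcr11 mark the ETS word followed by the NRF1 word, and those in Atp5j the NRF1 word followed by the YY1 word. Another promoter of Atp5j (chr16:84835576-84835875), not shown, holds none of the 4 words. The median log2 fold change, mutant over control, was 0.70 for the 11 genes with the NRF1 word and 0.73 for the covered members without it. For the ETS word it was 0.80 with and 0.70 without, for the YY1 word 0.64 with and 0.73 without, and for the ERR word 0.55 with and 0.73 without.

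Most nuclear members stood somewhat higher in the mutants, and few of them passed the test. Levels are CPM, read counts scaled to a common library size by total and TMM factor. A gene was called when edgeR's quasi-likelihood test gave a Benjamini-Hochberg adjusted p under 0.05 over all 20153 genes. Of the 95 nuclear members 89 had a log2 fold change above 0 and 6 below, with a median of 0.69 against 0.01 over all tested genes. The test called 3 higher (Cox7c, Cox7a1 and Atp5o) and 2 lower (Cox6a2 and Ndufaf7), where it called 4.36% of all tested genes higher and 7.97% lower. These shares of called members, 3 and 2 of 95, lie below those of all genes. A further 32 members had a positive fold change with an adjusted p between 0.05 and 0.1, a band not counted over all genes. Of the 95 members 64 were higher at an unadjusted p under 0.05, where 13.1% of all tested genes were. In 28 members the 4 mutant libraries all lay above the 4 control libraries (9.04% of all tested genes did), and in 2 all lay below (13%).

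**Figure D1:**
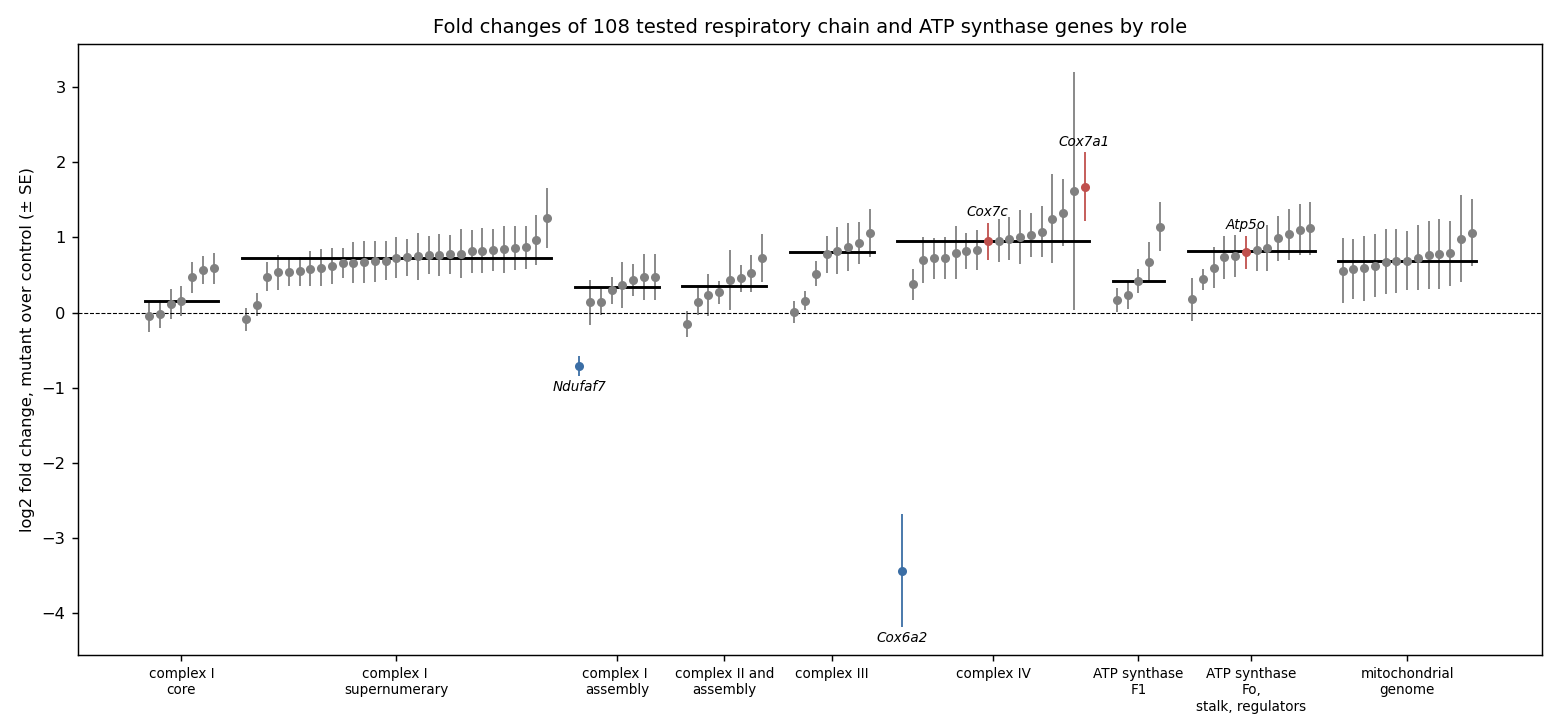
Log2 fold change, mutant over control, with its standard error (bars) for each tested member, ordered within its role, and the median of each role (black line). Red points were called higher and blue lower. Complex IV has the highest role median, 0.96, complex I core the lowest, 0.16, and Cox6a2 lies apart at -3.43.

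The number of nuclear members called higher rested on the tool and on single libraries. DESeq2 called 43 of the members higher and 2 lower (10% of the genes tested by both were called higher by DESeq2). With the count minimum required in all 8 libraries edgeR called 19 higher (7.19% of the genes then tested). Other scalings and filters gave 5 with RLE size factors (4.59% of all genes in that fit), 2 with library totals (5.04%) and 1 without a filter on low counts (1.98%). Leaving out control 4 gave 14 higher (5.08% of all genes were then called higher) and leaving out mutant 1 gave 8 (4.53%). Leaving out control 2, control 3, mutant 2 or mutant 4 gave 0, where 2.61, 2.79, 2.84 and 3.1% of all genes were called higher. Leaving out mutant 3 gave 1 (3.07%) and leaving out control 1 gave 2 (3.73%). The same 2 members, Cox6a2 and Ndufaf7, were called lower in every one of these fits. The median fold change of the nuclear members stayed between 0.53 and 0.91 on the log2 scale when any library was left out.

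As a share of all counts in a library, the nuclear members took 1.53, 1.26, 0.825 and 1.62% in controls 1 to 4 and 1.82, 2.61, 1.68 and 2.46% in mutants 1 to 4. All mutants thus lay above all controls, with means of 1.31% ± 0.355 and 2.14% ± 0.462 (SD, n = 4 each), a ratio of 1.64. The distance between the lowest mutant and the highest control was small against either spread. With each gene's counts divided by its exon length, which lowers the weight of long transcripts, the ratio was 1.48 and the groups overlapped. Control 3 was the lowest of the 8 libraries in 76 of the 95 members and mutant 4 the highest in 58, so single libraries held the extremes for most members.

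**Figure D2:**
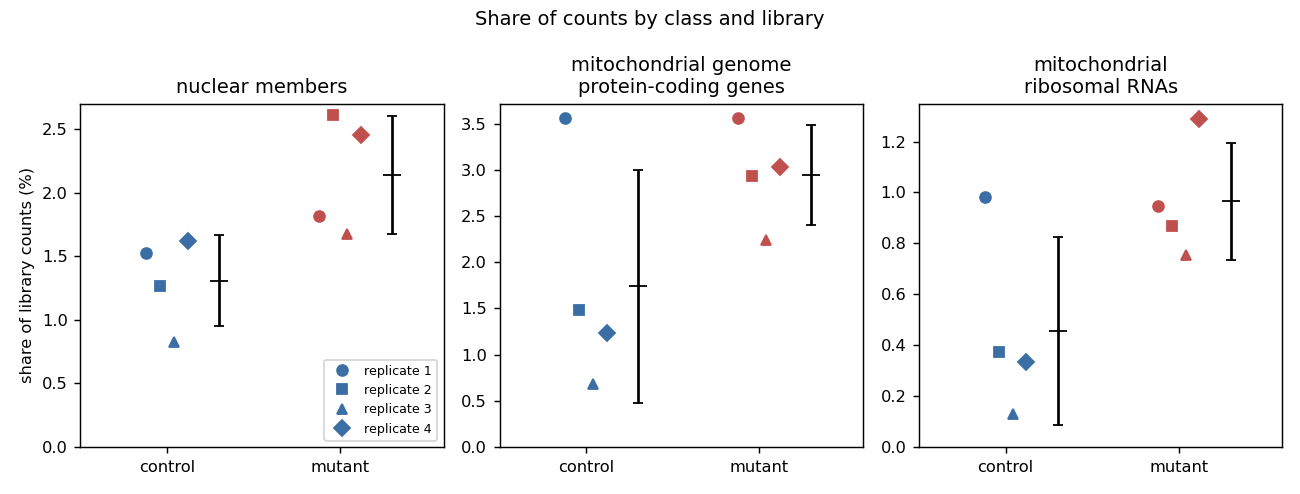
Share of each library's counts on the nuclear members, the mitochondrial genome's protein-coding genes and its ribosomal RNAs, in percent, with the mean and SD of 4 libraries beside the points. Nuclear shares of the mutants begin at 1.68%, above the highest control at 1.62%, whereas control 1 reaches 3.56% for the mitochondrial genes, level with mutant 1.

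The called member with the largest fold change was Cox6a2, which encodes the heart and skeletal muscle form of a small complex IV subunit. Cox6a2 (chr7:128205435-128206387, GRCm38) stood at 11.2, 6.84, 14.7 and 29.98 CPM in controls 1 to 4 and at 0.26, 2.72, 2.09 and 0.72 CPM in mutants 1 to 4. Every mutant lay below every control, and the lowest mutant rested on 10 counts. The log2 fold change was -3.43 ± 0.75 (SE) with an adjusted p of 0.018 by edgeR's quasi-likelihood test, and 0.022 to 0.049 when any library was left out. Its ubiquitous counterpart Cox6a1 averaged 380 CPM in controls and 617 in mutants (log2 fold change 0.70, adjusted p = 0.16 in the same test). Per exon length, Cox6a2 made up 1.96, 2.12, 6.83 and 7.09% of the summed Cox6a1 and Cox6a2 level in controls and 0.050, 0.401, 0.439 and 0.099% in mutants. On these unstranded libraries Cox6a2 shares 10.3% of its exon bases with Itgad, an integrin gene that stood at 1.23 to 1.83 CPM in controls and 0 to 0.388 in mutants, so reads over the shared bases cannot be assigned to either gene.

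Ndufaf7, a methyltransferase needed for complex I assembly, showed the tightest groups. It stood at 49.7, 50.8, 58.0 and 46.6 CPM in controls and at 31.6, 32.5, 30.1 and 31.2 CPM in mutants. The groups were far apart for their spread (51.3 ± 4.81 and 31.4 ± 1.02 CPM, SD, n = 4), and the log2 fold change was -0.71 ± 0.13 (SE), with an edgeR adjusted p of 0.0096 and at most 0.033 with a library left out.

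The 3 members called higher were 2 small complex IV subunits and the stalk subunit of ATP synthase that confers oligomycin sensitivity. Cox7c, found in every tissue, stood at 42.8, 32.8, 21.7 and 46.1 CPM in controls and at 58.3, 71.9, 63.2 and 84.0 CPM in mutants. Its log2 fold change was 0.95 ± 0.25 (SE) with an edgeR adjusted p of 0.036. Cox7a1, the muscle form of its subunit, stood at 10.6, 6.22, 3.63 and 14.2 CPM in controls and at 18.6, 39.3, 17.0 and 35.6 CPM in mutants. Its log2 fold change was 1.67 ± 0.46 (SE, edgeR adjusted p = 0.045). Atp5o stood at 75.2, 72.8, 48.2 and 85.1 CPM in controls and at 96.0, 158, 105 and 131 CPM in mutants, a log2 fold change of 0.80 ± 0.22 (SE, edgeR adjusted p = 0.049). In each of the 3 genes all mutants lay above all controls, with control 3 lowest. None of the 3 calls held throughout: with a library left out in turn, Cox7c was called in 3 of 8 fits (adjusted p up to 0.10), Cox7a1 in 3 (up to 0.12) and Atp5o in 2 (up to 0.12). Exons of Atp5o overlap those of the gene record Gm15976 over 18.1% of their bases, and 41.6% of its 50-base words recur in other gene records. For Cox7c 22.1% of these words recur in other gene records, most of all in Gm10012. Reads there may be shared.

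**Figure D3:**
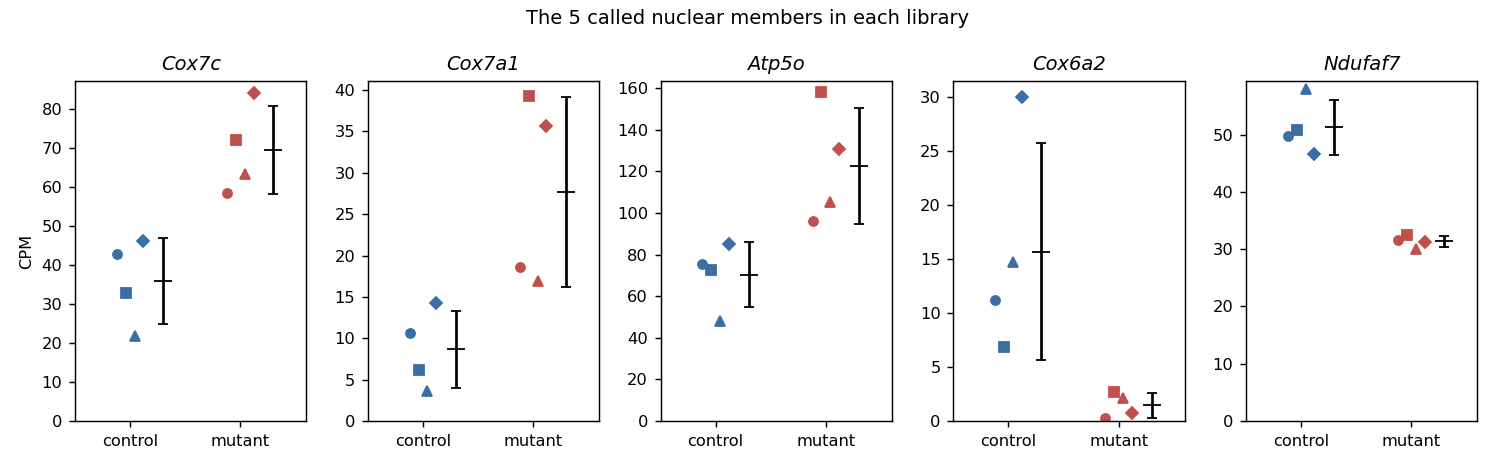
CPM of the 5 called nuclear members in each control (blue) and mutant (red) library, with the marker shape giving the replicate number and the bar the mean and SD of 4 libraries. Groups do not overlap in any of the 5 panels, and the mutants of Ndufaf7 sit between 30.1 and 32.5 CPM.

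Complex I is the largest of the complexes, and its core and supernumerary subunits had different medians. The 7 nuclear core subunits, which carry the flavin, the iron-sulfur clusters and the entry path of electrons, had a median log2 fold change of 0.16 with none called. Ndufs1, which binds iron-sulfur clusters, averaged 87.0 CPM in controls and 84.2 in mutants. Ndufs8, the core member with the highest level per exon length, averaged 209 ± 40.1 and 226 ± 45.8 CPM (SD, n = 4), well inside the spread of either group. Ndufv2 was the core member whose groups did not overlap (148 and 220 CPM on average, log2 fold change 0.57, edgeR adjusted p = 0.081). The 29 supernumerary subunits had a median of 0.73, with none called and 28 above 0. Of them 27 were higher at an unadjusted p under 0.05, where 13.1% of all tested genes were. An adjusted p under 0.1 was reached by 12, a limit not counted over all genes. Ndufc1 had the largest fold change of this role (55.0 and 131 CPM, log2 fold change 1.25, edgeR adjusted p = 0.074), and Ndufb5 the lowest adjusted p (80.2 and 127 CPM, log2 fold change 0.66, adjusted p = 0.059). Ndufa9 averaged 165 CPM in controls and 155 in mutants. Among the 8 assembly factors named Ndufaf, the median was 0.33 and Ndufaf7 was the only call. Ndufaf8, the highest of them per exon length, averaged 33.3 and 45.0 CPM (adjusted p = 0.21).

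Complex II, which is also the succinate dehydrogenase of the tricarboxylic acid cycle, had no called gene among its 4 subunits and 4 assembly factors, with a median of 0.35. Sdha, the flavoprotein, averaged 309 and 278 CPM, and Sdhd, a membrane anchor and the member of this role with the highest level per exon length, 174 ± 12.2 and 210 ± 32.0 CPM (SD, n = 4, log2 fold change 0.27, edgeR adjusted p = 0.27). Complex III had a median of 0.80 over 8 genes and none called. Its 2 large core proteins lay lowest, Uqcrc1 at 394 and 395 CPM and Uqcrc2 at 140 and 156 CPM. The small subunits lay higher: Uqcr10 averaged 167 and 348 CPM (log2 fold change 1.06, edgeR adjusted p = 0.061), and Uqcr11, the highest of the nuclear members of the complex per exon length, 228 ± 74.8 and 418 ± 150 CPM (log2 fold change 0.88, adjusted p = 0.11).

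Complex IV, cytochrome c oxidase, had the highest median, 0.96 over 18 tested genes, of which 17 lay above 0. Groups did not overlap in 9 of the 18 genes with higher mutants (9.04% of all tested genes) and in 1 with lower (13%). Cox8a had the highest level per exon length of all nuclear roles, 1004 ± 475 CPM per kb in controls and 1748 ± 439 in mutants (SD, n = 4, log2 fold change 0.80, edgeR adjusted p = 0.18). Ndufa4, now counted as a complex IV subunit despite its name, averaged 232 and 476 CPM without overlap (log2 fold change 1.03, adjusted p = 0.052). Cox6c averaged 114 and 241 CPM (log2 fold change 1.08, adjusted p = 0.071).

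Several complex IV subunits exist as a ubiquitous and a tissue-restricted form, and each pair was compared by its share of their summed level per exon length. Cox7a1 made up 9.98, 8.61, 7.70 and 12.5% of the summed Cox7a1 and Cox7a2 level in controls and 13.8, 18.7, 12.9 and 15.8% in mutants, so the share too did not overlap. Cox7a2, the ubiquitous form, averaged 134 and 261 CPM without overlap (log2 fold change 0.96, edgeR adjusted p = 0.063), and Cox7a2l, a supercomplex factor, 35.9 and 46.6 CPM (adjusted p = 0.28). Cox6b2, the testis form, averaged 36.2 and 91.0 CPM (log2 fold change 1.33, adjusted p = 0.085), beside Cox6b1 at 292 and 518 CPM (log2 fold change 0.83, adjusted p = 0.076), and its share of the pair overlapped between groups at 6.93% ± 2.16 and 9.83% ± 1.48 (SD, n = 4). Cox8b took 5.21% ± 2.70 of the Cox8 level in controls and 6.79% ± 2.40 in mutants. It averaged 20.4 and 48.5 CPM (adjusted p = 0.20). Ndufa4l2, the hypoxia-inducible relative of Ndufa4, had a share of 3.61% ± 0.332 and 3.57% ± 0.162 of that pair, and averaged 7.005 and 14.1 CPM (log2 fold change 1.01, adjusted p = 0.10). Cox4i1, the main form of its subunit, averaged 559 and 922 CPM (log2 fold change 0.72, adjusted p = 0.11), and Cox7b2 lay at most at 1.71 CPM in any library, with no counts in 3 of them.

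ATP synthase differed by part. The 5 genes of the F1 head, which holds the catalytic sites, had a median of 0.43 with none called, and its 2 large subunits, alpha (Atp5a1) and beta (Atp5b), averaged 747 and 842 CPM and 1181 ± 214 and 1387 ± 229 CPM (SD, n = 4). Atp5b had the highest level per exon length of the head (log2 fold change 0.23, edgeR adjusted p = 0.47). The small epsilon subunit Atp5e averaged 110 and 243 CPM without overlap (log2 fold change 1.14, adjusted p = 0.052). The 12 tested genes of the membrane part, the stalk and its regulators had a median of 0.82, and Atp5o was the only call. The Atp5g1, Atp5g2 and Atp5g3 genes encode the same mature c subunit of the proton-driven ring. Atp5g3 made up 75.4% ± 2.12 of their summed level per exon length in controls and 75.7% ± 1.09 in mutants (SD, n = 4). It averaged 355 and 635 CPM (log2 fold change 0.84, adjusted p = 0.088), Atp5g1 127 and 260 CPM (1.04 on the log2 scale, adjusted p = 0.081) and Atp5g2 45.7 and 69.2 CPM (0.60, adjusted p = 0.19).

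Long and short members differed in their fold changes, and other genes did so in the same order. The 25 nuclear members with up to 300 coding bases had a median log2 fold change of 0.96, the 28 above that and up to 450 bases 0.74, the 27 up to 900 bases 0.52, the 11 up to 1500 bases 0.14 and the 4 longer ones 0.06. In the same classes the other tested protein-coding genes had medians of 0.54, 0.42, 0.09, -0.10 and -0.23. In each class the members' median was thus the higher, by less than the difference between the shortest and the longest class. Spearman's correlation between coding length and log2 fold change was -0.77 across the 95 members and -0.19 across 14248 other genes, which share the same 8 libraries and are no independent replicates. Ndufv3, at 1404 coding bases and a log2 fold change of 0.83, was an exception among the long members. The complex I core subunits, with the lowest role median, were 636 (Ndufs8) to 2181 (Ndufs1) coding bases long.

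**Figure D4:**
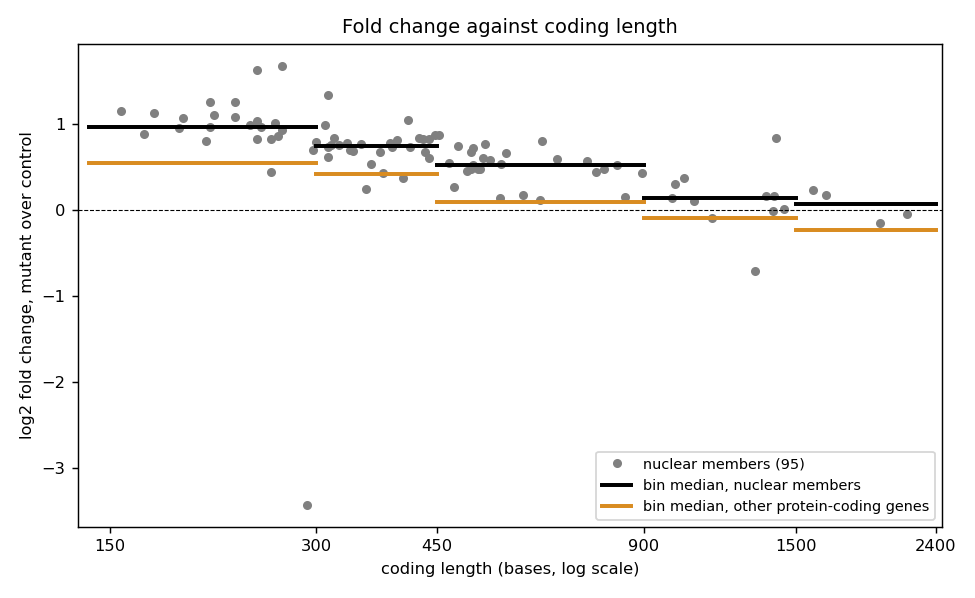
Log2 fold change, mutant over control, against coding length in bases (log axis) for the 95 nuclear members (grey), with the median of each length class for the members (black) and for all other tested protein-coding genes (orange). Both sets of medians step down with length, from 0.96 to 0.06 for the members and from 0.54 to -0.23 for the others.

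Short members and other short genes placed the 8 libraries in the same order. On the log2(CPM + 0.5) scale, relative to the mean of the 8 libraries, the median of the 53 members with up to 450 coding bases was -0.17, -0.51, -1.09 and 0.05 in controls 1 to 4 and 0.05, 0.71, 0.13 and 0.81 in mutants 1 to 4. The 1011 other protein-coding genes of that length gave -0.08, -0.24, -0.44 and 0.02 in controls and 0.01, 0.29, 0.09 and 0.42 in mutants, so both were lowest in control 3 and highest in mutant 4. The 15 members with over 900 coding bases stayed between -0.27 and 0.18 in every library, and in mutant 1 the short members were not above them. The 6344 other genes with over 1500 coding bases lay between 0.05 and 0.23 in controls and between -0.33 and 0.09 in mutants. How far a technical effect tied to transcript length takes part in the fold changes of the short members was not tested. The length classes were set after the values had been seen.

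The 13 mitochondrial genes all had higher means in the mutants, and none was called. The log2 fold changes ran from 0.56 for mt-Co1 to 1.06 for mt-Nd3, with a median of 0.69, and the edgeR adjusted p-values from 0.15 to 0.44. At an unadjusted p under 0.05 1 of the 13 was higher, where 13.1% of all tested genes were, and DESeq2 called none. mt-Co1, the catalytic subunit of complex IV, stood at 7844, 3176, 1775 and 2269 CPM in controls and at 6802, 5545, 4561 and 5251 CPM in mutants. Control 1 lay above all mutants there, and the other 3 controls below all mutants. Control 1 was the highest of the 8 libraries in 9 of the 13 genes, and control 3 the lowest in all 13, so the groups overlapped in every gene.

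The 7 complex I subunits of the mitochondrial genome, which form the proton-pumping membrane arm, had log2 fold changes of 0.58 (mt-Nd5), 0.62 (mt-Nd1), 0.68 (mt-Nd4), 0.69 (mt-Nd4l), 0.78 (mt-Nd2), 0.79 (mt-Nd6) and 1.06 (mt-Nd3). mt-Nd3 stood at 186, 78.8, 35.3 and 95.2 CPM in controls and at 191, 166, 169 and 301 CPM in mutants. mt-Cytb, the single mitochondrial subunit of complex III, averaged 2766 ± 1978 and 4169 ± 944 CPM (SD, n = 4, log2 fold change 0.59). mt-Co2, with the entry site of electrons from cytochrome c, averaged 1406 and 2336 CPM, and mt-Co3 3319 ± 2201 and 5364 ± 745 CPM (log2 fold changes 0.73 and 0.69). The ATP synthase subunits mt-Atp6 and mt-Atp8 had log2 fold changes of 0.77 and 0.98, with means of 1556 and 2652 CPM and of 74.9 and 148 CPM.

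Without control 1 all 13 mitochondrial genes were called higher, with adjusted p-values of 0.015 to 0.035 by the same test and a median log2 fold change of 1.29, where 3.73% of all tested genes were called higher. This fit leaves out the library that goes against the others and is given for its size, not as the result. As a share of counts the mitochondrial genes took 3.56, 1.49, 0.679 and 1.24% in controls and 3.56, 2.93, 2.24 and 3.03% in mutants (1.74% ± 1.26 and 2.94% ± 0.541, SD, n = 4). The 2 mitochondrial ribosomal RNAs took 0.984, 0.371, 0.129 and 0.334% in controls and 0.947, 0.869, 0.755 and 1.29% in mutants, so that mutant 4 was highest there and control 3 again lowest. Counts on the mitochondrial genes were 2.33, 1.18, 0.823 and 0.764 times those on the nuclear members in controls and 1.96, 1.12, 1.34 and 1.23 times in mutants, so the ratio of the classes did not separate the groups.

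**Figure D5:**
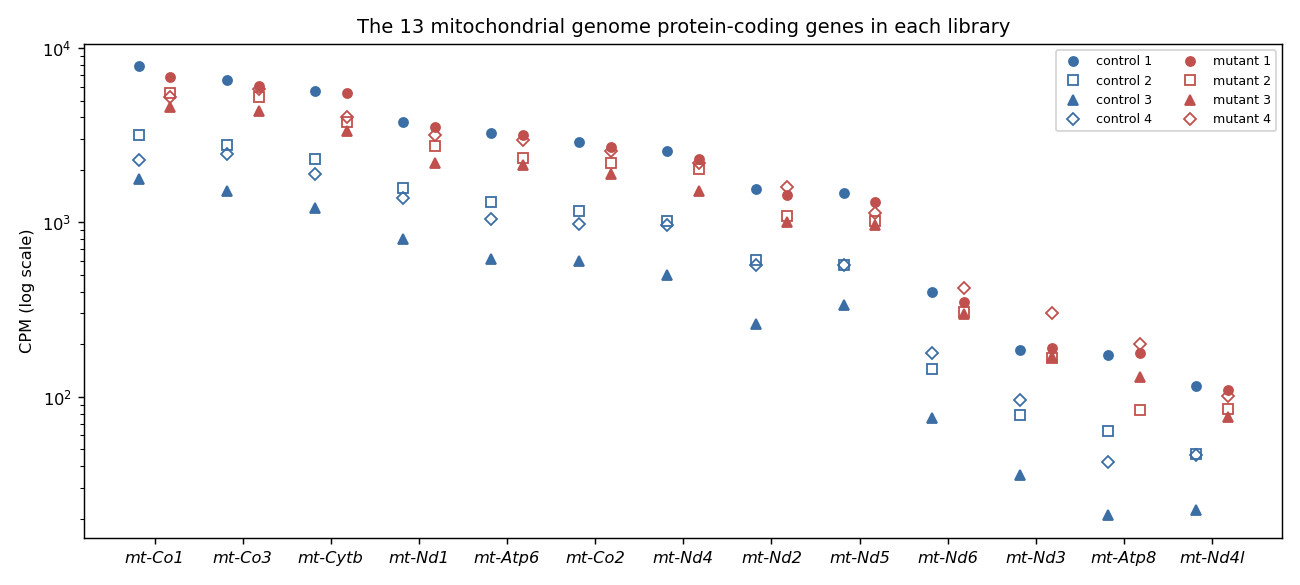
CPM (log axis) of the 13 mitochondrial protein-coding genes in each control (blue) and mutant (red) library, with the marker giving the replicate. Control 1 sits within or above the range of the mutants in every gene, and control 3 is lowest in all 13.

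Nuclear copies of the mitochondrial genome took part of these counts. A stretch of chromosome 1 (chr1:24611535-24616197, GRCm38) carries gene records that repeat several mitochondrial genes. The record Gm28437 matched mt-Co3 over all 783 aligned bases with 0 differences and held 1.01 times the gene's CPM in both groups. The first 60 bases, identical in the gene and the copy, are shown to make plain that reads from them cannot be told apart.
mt-Co3, bases 1 to 60: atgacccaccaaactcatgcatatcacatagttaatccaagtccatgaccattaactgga
Gm28661 likewise held 0.978 times the mt-Co2 level in controls and 0.973 times in mutants, Gm10925 1.01 and 1.02 times that of mt-Atp6, and Gm10222 1.36 and 1.38 times that of mt-Nd4l. The copies had log2 fold changes close to those of their genes, such as 0.70 for Gm28437 and 1.09 for Gm28438, the copy of mt-Nd3. Copies were added to each mitochondrial gene that shares more than 50% of its 50-base words with other gene records. With this choice, made after seeing the data, the median log2 fold change was 0.70 and none of the 13 was called. Where a copy exists, the level of a mitochondrial gene relative to other genes thus depends on how the shared reads were assigned.

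Few genes around the chain were called, and most of those were lower. These lists hold no member, and their counts stand beside 4.36% of all tested genes called higher and 7.97% called lower. Neither cytochrome c gene was called: Cycs, the soluble cytochrome c, stood at 46.7, 36.1, 24.0 and 44.0 CPM in controls and at 49.96, 65.9, 49.9 and 75.8 CPM in mutants (log2 fold change 0.68, edgeR adjusted p = 0.10), and Cyc1, the cytochrome c1 of complex III, averaged 215 and 250 CPM (0.22, adjusted p = 0.46). Of 40 tested assembly factors named outside the rule (43 listed, 42 found), 0 were called higher and 2 lower, with a median log2 fold change of -0.06. Timmdc1, which helps assemble the complex I membrane arm, averaged 15.9 and 3.99 CPM (log2 fold change -1.996, edgeR adjusted p = 0.042). Its groups overlapped, with control 1 at 4.91 CPM and the mutants at 2.46 to 6.76 CPM. Atpaf2, a chaperone of the F1 alpha subunit, averaged 35.1 and 22.9 CPM (-0.62, edgeR adjusted p = 0.043). Of 13 genes of coenzyme Q synthesis 1 was called, Coq8a, which fell from 26.1 to 12.6 CPM (log2 fold change -1.05, adjusted p = 0.016). None of 19 tricarboxylic acid cycle genes was called, and their median was -0.03.

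Regulators of respiratory genes were called in 4 of 18 cases, all lower (7.97% of all tested genes were), with a median of -0.03. Gabpb1, a subunit of GABP, stood at 29.7, 31.4, 30.6 and 26.2 CPM in controls and at 16.4, 13.1, 19.7 and 10.6 CPM in mutants (log2 fold change -0.98, edgeR adjusted p = 0.019). Pprc1, a coactivator of the PGC-1 family, averaged 35.0 and 19.6 CPM (-0.84, adjusted p = 0.039), Hif1a 69.3 and 40.2 CPM (-0.78, adjusted p = 0.012) and Ppard 8.30 and 1.71 CPM (-2.28, adjusted p = 0.014). Of 30 genes that copy, transcribe or translate mitochondrial DNA 2 were called, both lower: Polrmt, the mitochondrial RNA polymerase, averaged 32.3 and 17.6 CPM (-0.87, adjusted p = 0.049) and Supv3l1, a helicase of mitochondrial RNA turnover, 19.98 and 10.7 CPM (-0.89, adjusted p = 0.018). Of 13 tested carriers and uncoupling proteins 1 was called higher, Slc25a10, the dicarboxylate carrier, at 33.8 ± 2.80 and 62.8 ± 5.80 CPM (SD, n = 4, log2 fold change 0.89, adjusted p = 0.0037). Subunits and regulators left outside by their names, Usmg5, Atpif1 and Ndufb1-ps, listed after values had been seen, had log2 fold changes of 1.09, 0.77 and 0.97 with adjusted p-values of 0.090, 0.053 and 0.085.

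The X-linked members need a separate word because the groups differed in sex. All 4 controls expressed Xist (99.3 to 183 CPM, against at most 0.565 in the mutants) and all 4 mutants Y-linked genes such as Ddx3y (9.73 to 59.7 CPM, against at most 0.225 in the controls), so that sex and genotype cannot be told apart in any comparison here. The 3 X-linked members were Ndufa1, which had the highest level per exon length of the nuclear complex I members (155 and 302 CPM, log2 fold change 0.96, edgeR adjusted p = 0.089), Ndufb11 (110 and 201 CPM, 0.87, adjusted p = 0.087) and Cox7b (124 and 245 CPM, 0.98, adjusted p = 0.055). Their fold changes lay within those of the autosomal members, and 471 tested X-linked protein-coding genes had a median of 0.01.

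Other facts of the libraries bear on these values. Totals ran from 37649124 to 40932680 counts in controls and from 35639502 to 41946479 in mutants, so that the scarcest members, such as Cox6a2 and Cox7b2 in the mutants, were the ones with few counts. Smad3 was lower in the mutants (48.6 and 19.3 CPM, log2 fold change -1.33, edgeR adjusted p = 0.043) and Smad2 averaged 74.5 and 58.7 CPM (adjusted p = 0.34). Both were counted over the whole gene, which includes exons outside a deleted part. All 10 microglial markers had negative fold changes and 8 were called lower, such as P2ry12 (4829 and 169 CPM), and 4 of 6 border macrophage markers were called higher, such as Ms4a7 (4.63 and 585 CPM); in summed level they ran from 33050 to 49856 and from 9572 to 12539 CPM, and from 47.4 to 93.1 and from 1596 to 2482 CPM. In bulk samples a change in the mix of cells and a change of RNA per cell cannot be told apart.

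Markers of other cells were counted beside the members. Oligodendrocyte markers summed to 4325, 1504, 903 and 597 CPM in controls and 3601, 1959, 1081 and 1186 CPM in mutants, and neuronal markers to 288, 102, 47.6 and 31.9 CPM and 282, 136, 86.2 and 86.6 CPM, with no call among the 5 and 7 genes. Both were highest in control 1 and mutant 1, which also held the highest mitochondrial shares of their groups, and their part in the mitochondrial result was not tested. Erythroid markers summed to 131 to 1423 CPM in controls and 206 to 4912 CPM in mutants, the highest in mutant 4, with none of 3 called. Astrocyte markers summed to 1275 to 1811 and 115 to 433 CPM with 1 of 5 called lower (Slc1a3). The fall of this sum was that of Slc1a3 alone, which averaged 1347 and 78.8 CPM. Gfap, Aqp4 and Aldh1l1 had positive fold changes (0.65, 0.73 and 0.27 on the log2 scale) and Gja1 a negative one (-0.33), none called. Monocyte and neutrophil markers summed to 441 to 1594 and 244 to 763 CPM with none of 5 called. Endothelial markers summed to 17.6 to 35.6 and 12.5 to 29.2 CPM with none of 3 tested called. Lymphocyte markers summed to 10.3 to 24.1 and 14.1 to 27.9 CPM, with 1 of 3 called higher (Cd3e). No marker gene of these lists was at 0 in all libraries. Their part in the levels of the members was not tested.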

How the data were processed

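Bulk RNA-seq of sorted microglia (4 control and 4 mutant mice, P60) was analysed from the gene table deposited by the authors, which holds raw read counts per Ensembl gene with no normalization. Per the labels the reads were assigned with featureCounts on mm10. The study's methods describe Rsubread alignment, and a sort of cells enriched on a Percoll gradient. Labels and methods differ on the kit (Nextera XT single-end, or NEBNext Ultra II polyA paired-end), and both call the libraries unstranded, so overlapping genes share reads. The labels name DESeq2 1.28. A deposited table of the authors' own fold changes and p-values was not used.

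Gene IDs were matched to GENCODE mouse release 21 (55480 of 55573 matched). Genes that reached 10 counts in 4 or more of the 8 libraries were fitted with edgeR 4.0.16 in R 4.3.3 (TMM, quasi-likelihood test, Benjamini-Hochberg adjustment over 20153 genes, call under 0.05, SE from the F statistic), with no replicate block. Levels are CPM, divided by exon length where genes are compared. The common biological coefficient of variation was 0.54. The fit was tested on simulated data. The members, lists and tests were chosen with earlier results of these data known. Named with values were all mitochondrial genes, the highest member of each role per exon length, all called members, X-linked members, isoform families, and up to 4 called genes of each list. Other members named as examples were chosen after their values were seen. Replicates were compared, and chi-square per gene between libraries of a group was 107 to 276, far above sampling noise. P-values weigh the difference between the groups against the spread between these libraries, and cannot separate genotype from sex. DESeq2 1.42.0, other scalings and filters, a replicate block and libraries left out in turn were alternatives.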

Additional observations from a re-analysis of the deposited data

Results flagged for a closer look

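Each group of 4 libraries was examined for a library far from the other 3, over the 40 named members and the shares of both classes. This gave 1 such library in 84 groups, where chance gives about 1 in 20. It was control replicate 4 in Atp5g2, at 68.5 CPM against 36.1 to 41.6 CPM in the other controls. The same library was the highest control in 71 of the 95 nuclear members. The cause was not tested.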

How the results depend on the processing

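The median log2 fold changes of the nuclear and mitochondrial members were positive in every alternative, from 0.53 to 0.91 and from 0.45 to 1.29. The count of nuclear members called higher was 3 by edgeR's quasi-likelihood test, where 4.36% of all tested genes were. It was 5 with RLE size factors (4.59% of all genes), 2 with library totals (5.04%) and 1 without a filter on low counts (1.98%). At least 10 counts in all 8 libraries gave 19 (7.19%) and DESeq2 43 (10% of the genes tested by both). With a library left out it was 0 to 14 (2.61 to 5.08%). Library totals moved the median of all genes to 0.13, where that of the nuclear members was 0.80. With the replicate number as a block the test called 23 nuclear members higher (4.40% of all genes) and 2 lower. Of the 4 same-numbered pairs, 3 had deviations correlated at 0.18 to 0.25 and each correlated best with its own number, a hint of pairing from the data. The fourth was at -0.02 and no label ties the numbers to a litter or day, so the numbers were not taken as pairing the mice. Cox6a2 and Ndufaf7 stayed the 2 lower members in every alternative. Mitochondrial genes called higher were 0 in every alternative except without control 1 (0 to 13 over the libraries left out). There they were 13, where 3.73% of all tested genes were called higher. The ratio of shares for the mitochondrial genes, 1.69, lay between 1.40 and 2.60 with a library left out. Of 586 refits of the 40 named members 522 kept direction and side of the threshold, 19 lost the call, 44 gained it and 1 reversed (Ndufs8, from -0.0100 without mutant 2 to 0.31 without control 4). The causes were not tested. Annotation overlap and nuclear copies limit some members, and sex limits every comparison.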
